A study of Mus musculus with 38 samples.

Results

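Of 54435 pieces of H3K27ac on chromosomes 1 to 19 of IκBα-WT mouse embryonic stem cells (mESCs), 3208 lay away from genes' starts and away from H3K4me1. A piece was sequence called in at least 2 of 3 IκBα-WT H3K27ac libraries. The 3208 were under 30 kb wide, more than 5 kb from any transcription start site (TSS) of GENCODE vM21 and more than 1000 bp from sequence called in at least 2 of 3 IκBα-WT H3K4me1 libraries. They made up 12.6% of the 25474 distal pieces under 30 kb, and the other 22266, which had H3K4me1 within 1000 bp, served as the comparison. The IκBα-WT H3K27ac and H3K4me1 calls chose the regions, so the levels of both marks there, in either genotype, are described without a test.

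H3K27ac is acetylation of lysine 27 of histone H3, which p300 and CBP deposit at active promoters and enhancers. H3K4me1 is written by the MLL3 and MLL4 complexes, and it marks enhancers both before and during their activity, so that distal H3K27ac is usually found together with it. H3K9me3 marks heterochromatin and, in mESCs, silenced retroviral repeats, H3K27me3 marks Polycomb-repressed genes, and H3K4me3 marks active promoters.

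The libraries were ChIP-seq of H3K27ac, H3K4me1, H3K4me3, H3K27me3 and H3K9me3 in ES-E14TG2a cells on gelatin with serum and leukemia inhibitory factor (LIF), taken at 0 h. Each mark had 3 IκBα-WT libraries, from clones given a non-targeting guide RNA, and 3 IκBα-KO libraries, from clones in which guides against Nfkbia, the gene of the NF-κB inhibitor IκBα, had been used. That is 30 of the 38 samples, and the other 8 were inputs, which entered through the input reads that the lists give per call. By the labels each mark had 1 input per genotype, and H3K27ac and H3K4me1 shared theirs. The input values given for the 3 libraries of a genotype are therefore not 3 separate measurements. Each comparison of input between the genotypes rests on 1 input library against 1. The labels name 1 antibody for H3K27ac and H3K4me1, the one that the study's methods give for H3K4me1, and the methods name another for H3K27ac. If the labels hold, the lists called H3K27ac here would not measure that mark, and which antibody was used cannot be told from the lists. The lists of both marks do differ: median reads per kb of IκBα-WT calls with an H3K4me3 peak were 1.42 to 1.44 times those of calls without one for H3K27ac, and 1.24 times for H3K4me1 in each library. All 6 libraries of a mark were of 1 cell line at 1 time, and each clone is 1 edited line.

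The H3K27ac lists held 22753066 to 28105919 ChIP reads in calls, and the whole depth is not in the lists. The IκBα-KO lists held 44343 to 47256 H3K27ac calls over 407 to 416 Mb, and the IκBα-WT lists 51201 to 56922 calls over 377 to 389 Mb. Of 6 stem cell genes checked, Pou5f1, Nanog, Sox2, Zfp42 and Klf4 had H3K4me3 and H3K27ac within 1000 bp of their starts and Esrrb had neither, and Esrrb and Klf4 also had H3K27me3 there. Of 10 genes of other lineages 6 had both marks, and all 10 had H3K27me3 there.

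The sequences below are the middle 300 bases of 5 of the regions, from the GRCm38 assembly of RefSeq, plus strand, with each CG dinucleotide in capitals. The first 4 are the regions with the highest H3K27ac read density among those called in all 6 H3K27ac libraries. The last is the one with the highest density among regions called in 3 of 3 IκBα-WT and 0 of 3 IκBα-KO libraries. Each is named by the nearest protein-coding gene, which is a position and not a target.
Pum2, chr12:8641051-8641350: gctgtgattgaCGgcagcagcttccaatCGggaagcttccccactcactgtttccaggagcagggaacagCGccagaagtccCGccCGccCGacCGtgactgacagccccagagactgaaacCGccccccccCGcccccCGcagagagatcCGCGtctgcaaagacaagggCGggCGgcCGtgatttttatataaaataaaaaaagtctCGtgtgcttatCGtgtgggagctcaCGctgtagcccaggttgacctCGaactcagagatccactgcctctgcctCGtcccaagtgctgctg
Clec3a, chr8:114390751-114391050: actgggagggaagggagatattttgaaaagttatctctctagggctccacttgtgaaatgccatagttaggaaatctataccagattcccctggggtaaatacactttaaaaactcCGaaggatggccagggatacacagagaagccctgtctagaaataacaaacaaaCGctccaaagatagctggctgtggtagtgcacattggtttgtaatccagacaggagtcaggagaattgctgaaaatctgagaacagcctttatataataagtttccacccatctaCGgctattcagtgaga
Cdh9, chr15:16908351-16908650: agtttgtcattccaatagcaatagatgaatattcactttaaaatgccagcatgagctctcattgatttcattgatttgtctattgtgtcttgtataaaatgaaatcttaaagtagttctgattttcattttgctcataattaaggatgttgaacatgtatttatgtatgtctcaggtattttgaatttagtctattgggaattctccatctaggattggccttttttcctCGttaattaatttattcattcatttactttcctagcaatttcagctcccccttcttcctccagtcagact
Klf6, chr13:5694451-5694750: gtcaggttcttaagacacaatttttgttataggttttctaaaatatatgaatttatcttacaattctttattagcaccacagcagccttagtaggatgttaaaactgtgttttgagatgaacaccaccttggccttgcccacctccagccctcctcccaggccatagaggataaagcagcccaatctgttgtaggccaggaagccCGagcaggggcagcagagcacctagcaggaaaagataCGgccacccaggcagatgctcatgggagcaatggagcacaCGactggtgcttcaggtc
Gnai1, chr5:18562851-18563150: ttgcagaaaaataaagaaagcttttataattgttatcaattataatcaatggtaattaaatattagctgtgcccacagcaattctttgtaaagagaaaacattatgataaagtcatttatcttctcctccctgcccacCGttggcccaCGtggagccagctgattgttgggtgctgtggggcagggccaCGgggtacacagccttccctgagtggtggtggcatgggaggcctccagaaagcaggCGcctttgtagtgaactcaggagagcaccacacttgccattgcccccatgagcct

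The Pum2 window had 20 CG dinucleotides and 59.3% G+C, while the Cdh9 window had 1 and 32%. Between 14.7% (Clec3a) and 45.3% (Cdh9) of the bases of these windows were soft-masked, the assembly's marking of repeats.

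The regions were narrow and only modestly above input. Their median width was 2400 bp (quartiles 1600 and 3400, range 200 to 17800), against 3800 bp for the comparison regions. In the IκBα-WT libraries that called them, the median density was 43.8, 43.8 and 44.8 H3K27ac reads per kb of the call, with 29.3, 29.2 and 29.2 input reads per kb of the same calls. The comparison regions had medians of 46.7, 47.5 and 48.5 ChIP reads and 30.6 input reads per kb in each library. The median log2 fold of ChIP over input, as a mean of the IκBα-WT libraries, was 0.58 for the regions and 0.64 for the comparison. Their sequence had a median of 43.2% G+C and 7.69 CG dinucleotides per kb, against 45.6% and 10.5 for the comparison. Median soft-masked shares were 20.5% and 19.9%, and over chromosomes 1 to 19 as a whole 33.5% of the bases are soft-masked. No test was made of these values, which come from the libraries that chose the regions or from sequence.

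The distance limits cut through a continuum. Distal pieces over 600 and up to 1000 bp from H3K4me1, just outside the limit, numbered 379 with a median width of 2200 bp and a median log2 fold of 0.60. Those over 1000 and up to 1400 bp away, just inside, numbered 277 with the same median width and a log2 fold of 0.55. Sequence called for H3K9me3 in at least 2 of 3 IκBα-WT libraries touched 22.7% of the former and 21.3% of the latter. That share was 27.1% over 1400 and up to 5000 bp away and 40.3% beyond 5000 bp. Where H3K4me1 overlapped or touched the piece it was 15.6%. At the TSS limit, pieces without H3K4me1 numbered 194 in the last 1000 bp before it and 160 in the first 1000 bp beyond it, with median widths of 2400 and 2600 bp. The width limit removed 0 pieces that met the other terms. The median distance from the regions to the H3K4me1 consensus was 6400 bp, with quartiles of 2800 and 18400 bp. Lack of H3K4me1 was a matter of 2 of 3 lists: 733 of the regions (22.8%) had an H3K4me1 call in 1 IκBα-WT list, 5 had partial calls in 2, and 2470 (77.0%) had none.

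**Figure D1:**
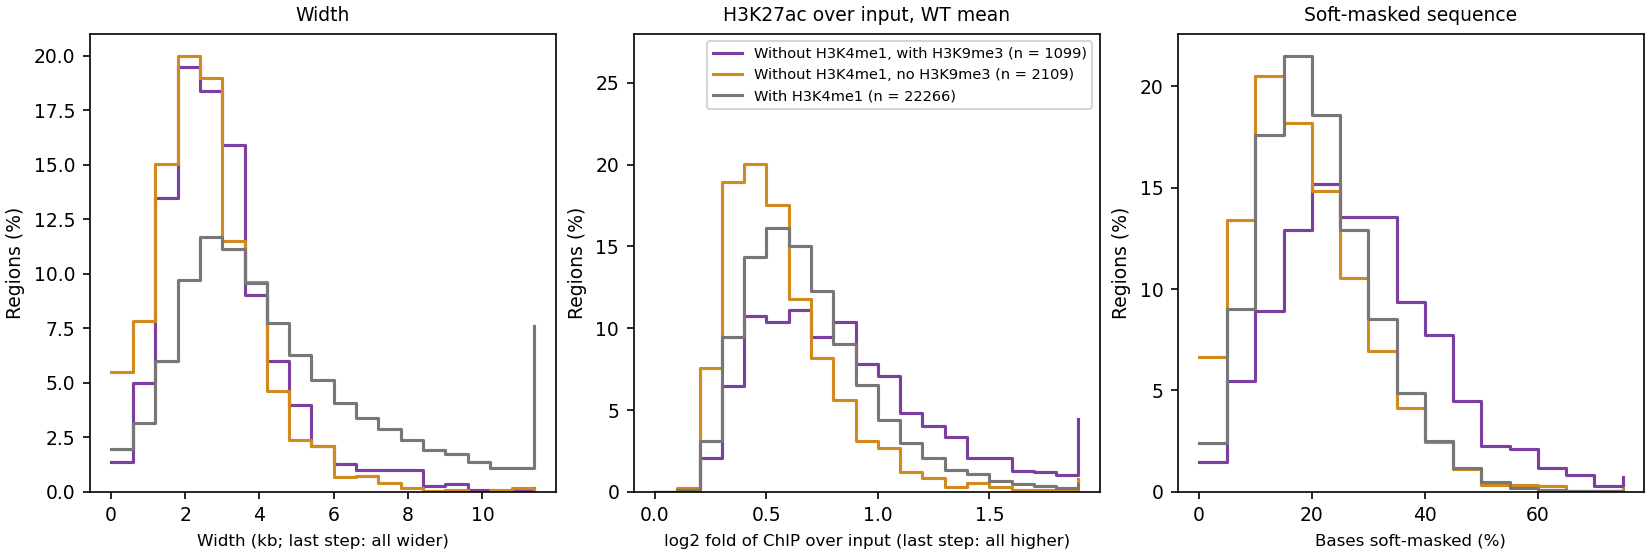
Distributions of width (kb), log2 fold of H3K27ac over input (mean of the IκBα-WT libraries with a call) and soft-masked bases (%), as the percent of regions per step, for distal H3K27ac without H3K4me1 and with H3K9me3 (n = 1099), without either (n = 2109) and with H3K4me1 (n = 22266). The regions without H3K4me1 are narrower, and those with H3K9me3 reach higher folds and higher soft-masked shares.

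Of the 3208 regions, 1431 (44.6%) touched the body of a protein-coding gene, against 52.5% of comparison regions, and 709 (22.1%) overlapped an exon of one, against 20.6%. Outside any annotated gene lay 1614 (50.3%), against 42.5%. The regions in gene bodies were spread over 1048 protein-coding genes, 785 of them with 1 region and 80 with 3 or more. Fhit, a large gene at a fragile site, held 9 regions over 1612 kb (chr14:9550092-11162035), 3 of them with H3K9me3, all intronic, called in 2 or 3 IκBα-WT lists at mean densities of 38 to 55.1 reads per kb. Srgap3 held 6, of which 4 were called in all 3 IκBα-KO lists and 4 had an IκBα-KO H3K4me1 call. Chd9, a chromatin remodeler, held 5 in all 3 IκBα-WT and all 3 IκBα-KO lists. All 5 overlapped exons, at 39.9 to 42 reads per kb. Chd9 lies on chromosome 8, where IκBα-KO input was higher (values with the shares kept), and the part of this was not tested. Nup98, a nuclear pore protein, also held 5, all on exons, in all 3 IκBα-KO lists and with an IκBα-KO H3K4me1 call. Immp2l, a mitochondrial inner membrane peptidase, held 5, of which 4 carried H3K9me3, and Snx29, a sorting nexin, held 5 with 0 carrying it. All 6 genes also held comparison regions, from 1 in Nup98 to 15 in Fhit. The regions stood apart from each other, with 22.4% within 10 kb of another, against 57% of the comparison regions, and the median distance to the nearest comparison region was 18000 bp.

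H3K9me3 was more frequent at the regions as a whole than at the comparison regions as a whole. Just inside and just outside the H3K4me1 limit the shares were similar, as given above, and the highest share lay far from H3K4me1. Its calls covered 28.8%, 29.3% and 28.2% of their bases in the 3 IκBα-WT libraries and 28.0%, 26.6% and 28.4% in the 3 IκBα-KO libraries. In the comparison regions it covered 8.73%, 8.87% and 8.47% and then 8.86%, 8.38% and 8.90%, close to the 6.80% to 8.07% of the genome that these lists cover. The 6 libraries of each set did not overlap with those of the other. The difference was 19.5 percentage points ± 0.80 (SD, n = 6 libraries, range 18.2 to 20.5), higher in 6 of 6, with an exact two-sided sign-flip permutation p of 0.03125, the smallest that 6 libraries can give, and an adjusted p of 0.03125 over the 3 marks. Each library compared the same fixed sets of regions. This p, like those for the other marks, therefore measures how steadily libraries repeat a difference, whatever its size, and not the variation between regions. By number of regions, 1092 to 1130 (34.0% to 35.2%) had an H3K9me3 call in an IκBα-WT library and 1007 to 1116 (31.4% to 34.8%) in an IκBα-KO library. Of the 3208, 845 (26.3%) had one in all 6 libraries and 1854 (57.8%) in none.

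The H3K9me3 calls at these regions were wide and well above input. Their median width was 5700, 6400 and 5800 bp in the IκBα-WT libraries, and they covered a median of 95.6%, 100% and 100% of a region that they touched. Their median log2 fold over input was 1.71, 1.68 and 1.80 in IκBα-WT and 1.84, 1.63 and 1.70 in IκBα-KO, against 1.34, 1.34 and 1.44 and then 1.34, 1.18 and 1.25 at comparison regions. Around the centres of the regions, the IκBα-WT H3K9me3 consensus covered 28.4% of the centres and 12.8% and 13% of the points 10 kb to either side. At comparison regions it covered 6.90% of the centres and 6.72% and 6.81% of those points, so no peak was seen there.

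**Figure D2:**
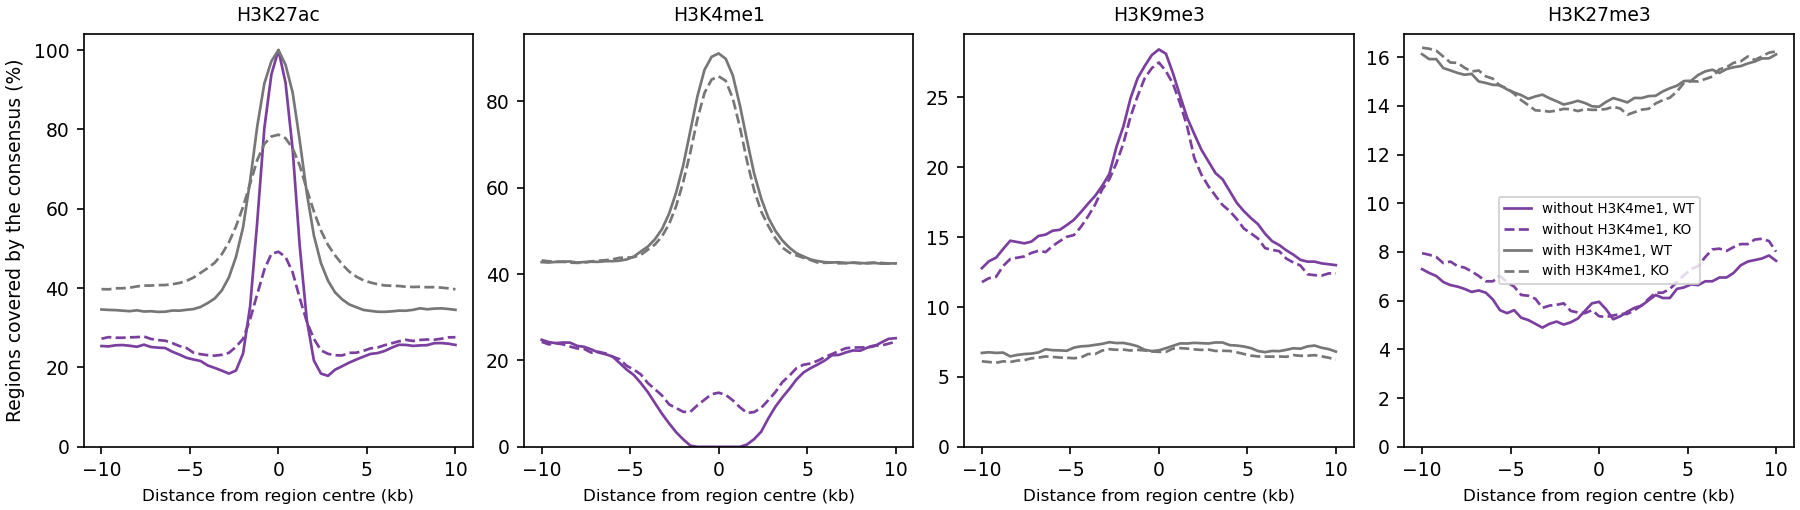
Percent of regions whose sequence is in the consensus (at least 2 of 3 libraries) of H3K27ac, H3K4me1, H3K9me3 and H3K27me3, by distance from the region's centre (kb), for distal H3K27ac without H3K4me1 (purple) and with it (grey), in IκBα-WT (solid) and IκBα-KO (dashed). H3K9me3 peaks at 28.4% at the centres of the regions without H3K4me1 in IκBα-WT, and H3K27me3 is lower over them than over the others; the solid H3K27ac and H3K4me1 curves follow from how the regions were chosen.

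H3K27me3 went the other way. It covered 4.87%, 5.69% and 5.30% of the bases of the regions in the IκBα-WT libraries and 5.25%, 5.79% and 4.27% in the IκBα-KO libraries. In comparison regions these were 12.2%, 14.4% and 14.4%, then 12.8%, 13.2% and 12.1%, above the regions in every library. The difference was -7.97 percentage points ± 0.72 (SD, n = 6), lower in 6 of 6, exact sign-flip permutation p = 0.03125 and adjusted p = 0.03125. H3K4me3 was nearly absent from both sets, at 0.042% to 0.076% of bases in the regions and 0.265% to 0.508% in the comparison, with a difference of -0.33 points ± 0.086 (SD, n = 6), lower in 6 of 6 and the same exact permutation p and adjusted p of 0.03125. Only 7 or 8 regions per IκBα-WT library and 8 to 12 per IκBα-KO library overlapped an H3K4me3 peak. With comparison regions weighted to the same widths, and counted by number, 9.35% to 11.8% of them had an H3K9me3 call and 20.3% to 23.0% an H3K27me3 call.

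**Figure D3:**
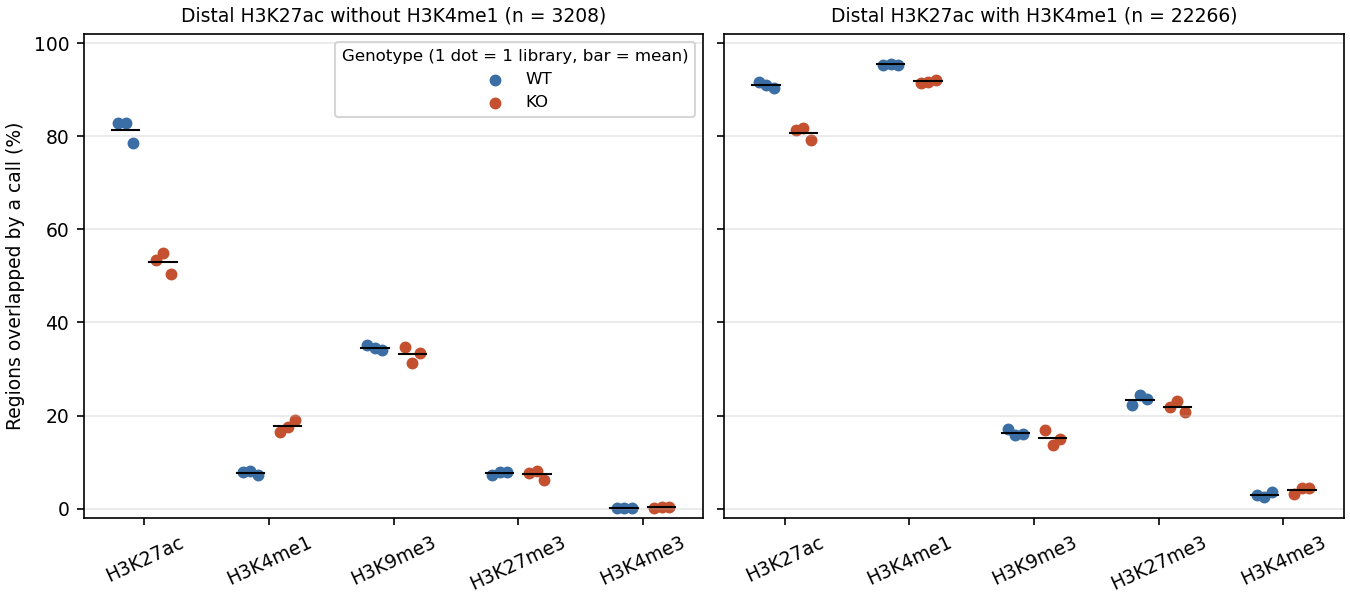
Percent of regions with a call of each mark (at least 1 bp), 1 dot per library and the bar at the mean of 3, for the 3208 distal H3K27ac regions without H3K4me1 (left) and the 22266 with it (right). H3K9me3 lies at 31.4% to 35.2% on the left and at 13.7% to 17.1% on the right, while the H3K27ac and H3K4me1 dots of IκBα-WT are set by how the regions were chosen.

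A split of the regions by H3K9me3, made after these values were seen, gave groups of different make-up. The IκBα-WT H3K9me3 consensus touched 1099 regions (34.3%) and left 2109. Those with H3K9me3 were mostly outside genes, with 73.0% outside any gene and 21.7% in a protein-coding body, and 7.46% touched a protein-coding exon. Those without were mostly within genes, with 56.6% in a protein-coding body and 29.7% on an exon. The same split of comparison regions gave 33.8% and 56.0% in protein-coding bodies and 14.9% and 21.6% on exons. Median distances to the nearest protein-coding start were 95041 bp with H3K9me3 and 58727 bp without. The regions with H3K9me3 had a median of 41.7% G+C and 26.8% soft-masked bases, against 44.1% and 17.4%. Their median log2 fold of H3K27ac over input was 0.80 in IκBα-WT, and that of the rest 0.52, at 27.8 and 29.8 input reads per kb. The comparison regions split in the same way had 0.83 with H3K9me3 and 0.62 without, and 23.8% and 19.1% soft-masked bases.

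Sequence shared among the regions was counted as 31-base words that also occur in another distal H3K27ac region, which is not a count of repeats over the genome. In the middle 1000 bases, 1.73% of the 31-base words of the regions, on average, were shared so, against 1.25% in the comparison. The share was 3.44% in the regions with H3K9me3 and 0.85% in those without, and 2.0% and 1.11% in the comparison regions split the same way. Of the regions with H3K9me3, 239 (21.7%) held a word found in 10 or more distal regions, against 185 (8.77%) of those without. Starts of olfactory receptor genes (symbols in Olfr) were nearest to 17 (1.55%) of the regions with H3K9me3 and 4 (0.19%) of those without, and starts of vomeronasal receptor genes (Vmn) to 25 (2.27%) and 6 (0.28%). In the comparison, not split by H3K9me3, the shares were 0.17% and 0.072%. Starts of zinc finger genes (Zfp) differed little, being nearest to 20 (1.82%) of the regions with H3K9me3 and 34 (1.61%) of those without. In the comparison that share was 1.56%. These gene families were chosen after their values were seen.

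Single regions show the range. The region near Pum2, which encodes an RNA-binding translational repressor, is 800 bp wide (chr12:8640801-8641600) and 32534 bp from that gene's start. It had 164, 164 and 235 H3K27ac reads per kb in IκBα-WT and 156, 130 and 148 in IκBα-KO, with input at 17.0 to 25.0. It was called for H3K4me3 in all 6 libraries and for H3K9me3, H3K27me3 and H3K4me1 in 0. The region near Clec3a, a C-type lectin (chr8:114390601-114391200), had 98.3, 153 and 135 reads per kb in IκBα-WT and 205, 180 and 134 in IκBα-KO, which overlap. Its H3K4me1 was called in 1 IκBα-WT and 3 IκBα-KO libraries, 1800 bp being the distance to the IκBα-WT consensus. This region too is on chromosome 8, and its H3K27ac input was 25.0 reads per kb in each IκBα-WT library and 31.7, 31.7 and 23.8 in IκBα-KO. Neither the Pum2 nor the Clec3a region touched the body of a protein-coding gene.

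The regions near Cdh9, a cadherin (chr15:16907601-16909400), and Klf6, a Krüppel-like factor (chr13:5694201-5695000), combined H3K27ac with H3K9me3 in all 6 libraries. The first had 108, 118 and 131 H3K27ac reads per kb in IκBα-WT and 98.1, 95.6 and 69.4 in IκBα-KO. It was chosen by IκBα-WT density, which favours IκBα-WT. Its H3K27ac input was 21.7 reads per kb over the IκBα-WT calls and 27.8 to 28.1 over the IκBα-KO calls. Its H3K9me3 calls held 32.5 to 47.5 H3K9me3 reads per kb. The second had 143, 101 and 101 in IκBα-WT and 138, 153 and 62.5 in IκBα-KO, which overlap widely, with 38.8 to 50.1 H3K9me3 reads per kb. Neither had an H3K4me1 call in any library. The next by density lay near Zfp53, a zinc finger gene, at 79.5 to 153 reads per kb in IκBα-WT and 75 to 138 in IκBα-KO, and near E330034G19Rik, at 77.5 to 114 and 39.5 to 113 in the same order.

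The widest region spanned 17800 bp (chr6:107047601-107065400), 247524 bp from Crbn, the gene of cereblon. It was called for H3K27ac and H3K9me3 in all 6 libraries, with 53.4, 58.2 and 55.1 H3K27ac reads per kb in IκBα-WT and 51.7, 56.7 and 47 in IκBα-KO. H3K4me1 calls touched it in 2 IκBα-WT libraries, at different bases, and in 3 IκBα-KO libraries. The next was 14200 bp wide within Rictor, which encodes a subunit of mTORC2 (chr15:6784001-6798200), and overlapped exons. It had 37 to 44.7 H3K27ac reads per kb in IκBα-WT over an input of 33.2 to 39.2, little above it, and H3K9me3 calls at 70.3 to 115.5 reads per kb in all 6 libraries. A region of 11000 bp (chr4:4564201-4575200), with Impad1 the nearest gene, had 46.6, 43.5 and 47.9 H3K27ac reads per kb in IκBα-WT and no call in any IκBα-KO library. The fourth, 10800 bp within Aqr, an RNA helicase of the splicing machinery (chr2:114098801-114109600), was called in all 6 H3K27ac libraries at 41.6, 40.9 and 42.8 reads per kb in IκBα-WT and 39.6, 44.4 and 34.3 in IκBα-KO.

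The regions with the other marks in all 6 libraries were few and unlike each other. H3K4me3 was called so at 6 regions. Besides Pum2, they included one within Gm17655 (chr5:110057801-110058600; 73.8 to 106 H3K27ac reads per kb in IκBα-WT) and one of 8200 bp lying 31092 bp from Ccr1, a chemokine receptor gene (chr9:123929401-123937600). The Ccr1 region had the highest density of all, 212 and 224 H3K27ac reads per kb in the 2 IκBα-WT libraries that called it, but 198 input reads per kb, and its H3K9me3 calls held 596.5 to 764.9 reads per kb. H3K27me3 was called in all 6 at 98 regions (3.05%). These included one on an exon of Rims1, a presynaptic protein (chr1:22532801-22534400), with H3K4me3 in all 6 libraries as well and H3K4me1 in 3 IκBα-KO libraries, one 37688 bp from Irx6 (chr8:92636001-92636600) and one within Hydin, an axonemal protein (chr8:110471401-110473000). The Hydin region was called for H3K27ac in 3 IκBα-WT and 0 IκBα-KO libraries, and for H3K9me3 in 0 and 3 in the same order. Among the regions with H3K9me3 in all 6, one that lay 11626 bp from Olfr1339 (chr4:118743801-118744200) had 103, 108 and 135 H3K27ac reads per kb in IκBα-WT, a mean of 115 that tied with that of the Klf6 region.

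**Figure D4:**
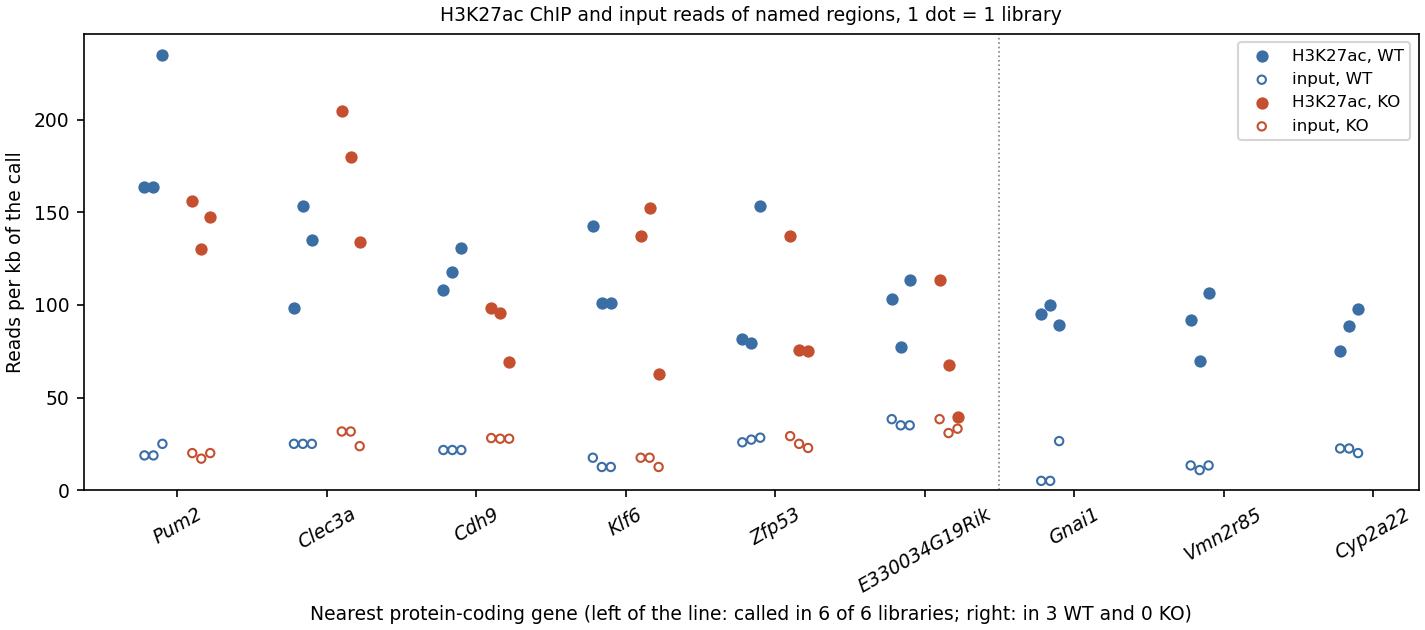
H3K27ac ChIP reads (filled) and input reads (open) per kb of the call in each library, IκBα-WT in blue and IκBα-KO in orange, for the 6 regions of highest density called in all 6 libraries and 3 of high density called in 3 IκBα-WT and 0 IκBα-KO libraries. ChIP reads exceed input in every library with a call. All regions shown were ranked by IκBα-WT density, a choice that favours IκBα-WT dots above IκBα-KO dots.

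Each IκBα-KO H3K27ac list kept about 1 in 2 of the regions. A region counted as kept when a call overlapped it by at least 1 bp, and the 3 lists kept 53.5%, 54.9% and 50.4% (mean 52.9% ± 2.32, SD, n = 3). They kept 81.4%, 81.8% and 79.2% of the comparison regions, and after weighting those to the regions' widths 71.9%, 72.6% and 69.3%. The regions had been chosen on IκBα-WT lists, which alone favours those lists. When they were redefined on 2 of the 3 IκBα-WT libraries, the third held 75.9%, 75.9% and 72.4% of them, depending on which was left out. The IκBα-KO lists held 58.7% to 64.5% of the same sets, below the third IκBα-WT library in each case. For comparison regions redefined that way the figures were 90.8% to 91.5% and 84.8% to 87.4%. With the rule turned round, 2283 regions were chosen on the IκBα-KO lists, and the IκBα-WT lists held 63.9%, 62.2% and 61.2% of them. Since calls in these lists chose the regions, no test was made.

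Of the 1416 regions called in all 3 IκBα-WT lists, 744 (52.5%) were called in all 3 IκBα-KO lists and 270 (19.1%) in 0. Of the 1792 called in 2, 421 (23.5%) were called in all 3 and 703 (39.2%) in 0. By width, the lists kept 42.6% to 45.9% of regions under 1000 bp and 38.5% to 45.6% of those from 1000 to under 2000 bp, and the mean share was higher in each wider class, up to 83.5% to 90.8% of those of 6000 bp or more. It was under that of comparison regions in each class. It was similar with H3K9me3 (56.6%, 57.2% and 49.2%) and without (51.9%, 53.7% and 51.0%). Among comparison regions the lists kept 88.1% to 90.5% of those with H3K9me3 and 77.6% to 80.3% of those without. Regions on protein-coding exons were kept at 65.7% to 69.3%, those in introns at 49.0% to 53.9% and those outside any gene at 44.8% to 50.7%. By chromosome the mean share ran from 38.9% on chromosome 12 to 72.2% on chromosome 8. On chromosome 8, input reads per kb in IκBα-KO were a median of 1.35 times those in IκBα-WT at the 126 regions with calls in both, and elsewhere the median per chromosome was 0.931 to 1.01. The part of this in the share kept was not tested.

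**Figure D5:**
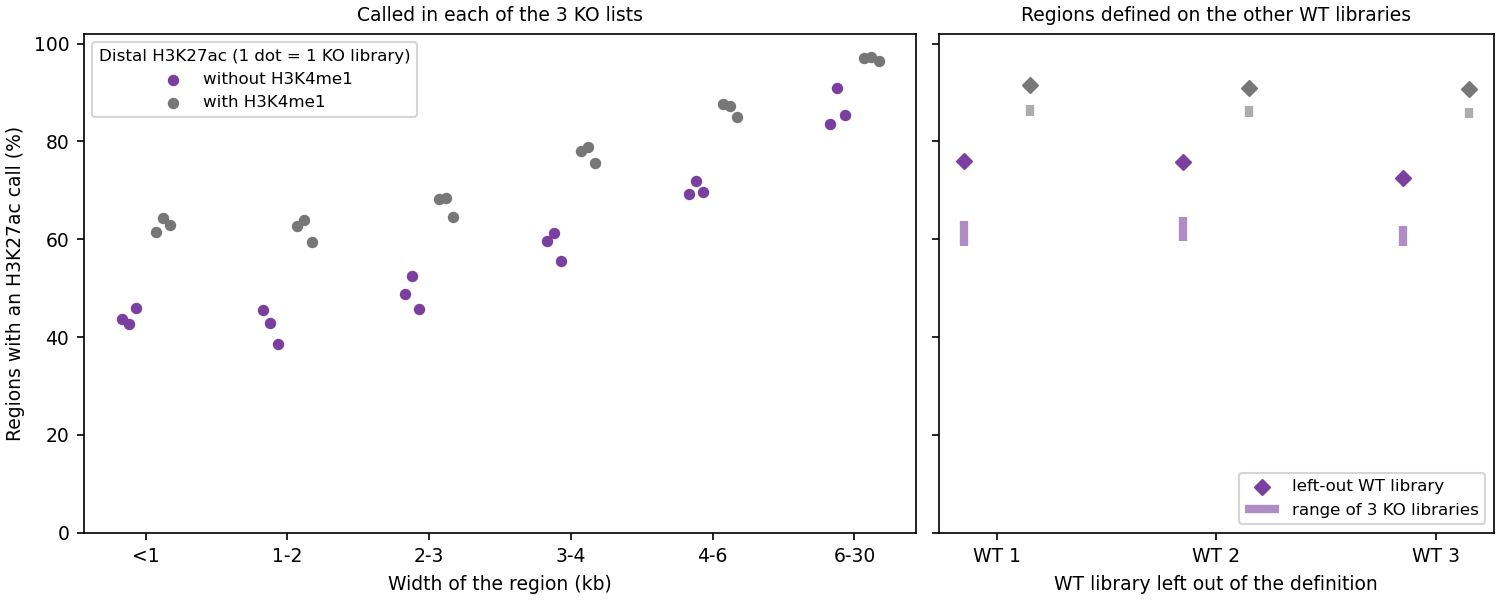
Left, percent of regions with an H3K27ac call in each IκBα-KO library (1 dot each) by width (kb), for distal H3K27ac without H3K4me1 (purple) and with it (grey). Right, the same for regions defined without 1 IκBα-WT library, with that library as a diamond and the range of the 3 IκBα-KO libraries as a bar; the diamonds lie at 72.4% to 75.9% and the bars at 58.7% to 64.5% for the regions without H3K4me1.

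The 270 regions called in 3 IκBα-WT and 0 IκBα-KO lists had a median width of 2800 bp, and 144 (53.3%) carried H3K9me3, as did 355 (47.7%) of the 744 called in all 6. Of those of highest density, the 3 named here had H3K9me3 calls in all 6 libraries and no H3K4me1 call. The region 202446 bp from Gnai1, a G protein subunit gene (chr5:18562801-18563200), had 95, 100 and 89.1 H3K27ac reads per kb in IκBα-WT and 37.9 to 53.2 H3K9me3 reads per kb. Its IκBα-WT H3K27ac calls were 400, 400 and 7400 bp wide, with 5, 5 and 26.5 input reads per kb. The third density is thus mostly of sequence outside the region, and the first 2 rest on few reads. The others lay within the body of Vmn2r85, a vomeronasal receptor gene (chr10:130421601-130422200; 91.7, 70 and 107 H3K27ac reads per kb), and 42617 bp from Cyp2a22, a cytochrome P450 gene (chr7:26982001-26982800; 75, 88.8 and 98). No call in a list means that the reads did not pass the caller's threshold, and the reads of uncalled sequence are not given.

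H3K4me1 was called in IκBα-KO at 16.4%, 17.6% and 19.2% of the regions, and in single IκBα-WT lists at 7.82%, 8.14% and 7.20%. The IκBα-WT share is low because the rule removed regions with H3K4me1 in those lists. With the rule based on 2 of the IκBα-WT H3K4me1 libraries, the third had a call at 21.9%, 22.5% and 22% of the regions. The IκBα-KO libraries had one at 22.8% to 26.3% of the same sets, above the third IκBα-WT library in each set but by a smaller gap than before. For regions chosen on the IκBα-KO lists, IκBα-WT lists had an H3K4me1 call at 18.1% to 19.2%. An IκBα-KO H3K4me1 call was less frequent at regions with H3K9me3 (9.19% to 10.7%) than at those without (20.2% to 23.6%). It was found at 26.4% to 27.6% of regions on protein-coding exons and at 10.7% to 14.1% of those outside genes. Of the 1690 regions that overlapped the IκBα-KO H3K27ac consensus, 490 (29.0%) had the IκBα-KO H3K4me1 consensus within 1000 bp. The set that met the same rule in IκBα-KO shared 967 of the 3208 regions, 30.1% of these and 42.4% of the IκBα-KO set.

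The marks that the rule did not use differed little between the genotypes over the regions as a whole. H3K9me3 covered 28.8% ± 0.59 of their bases in IκBα-WT and 27.6% ± 0.97 in IκBα-KO (SD, n = 3 each), a difference of -1.13 percentage points with an exact two-sided permutation p of 0.2 and an adjusted p of 0.45. H3K27me3 covered 5.29% ± 0.41 and 5.10% ± 0.77, a difference of -0.19 points with an exact permutation p of 0.8. H3K4me3 covered 0.054% ± 0.0099 and 0.067% ± 0.011, a difference of 0.014 points with an exact permutation p of 0.3. With 3 libraries against 3 this test cannot go below 0.1, so none of these could pass, and the IκBα-WT and IκBα-KO values of each mark overlapped.

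Read counts allowed a test of each H3K27me3 or H3K9me3 region called in all 6 libraries, with edgeR's quasi-likelihood test and Benjamini-Hochberg adjustment over all regions of a mark. H3K27me3 was called differential at 507 of 18708 regions, 2.71%, of which 316 were higher (1.69%) and 191 lower (1.02%) in IκBα-KO. Of these 18708 regions 215 overlapped 228 of the distal H3K27ac regions, and 9 of the 215 (4.19%) passed, all 9 higher in IκBα-KO. The number moved with single libraries, and the share over all regions moved too. Without IκBα-WT replicate 1, 2 or 3 it was 14 (6.51%), 5 (2.33%) and 6 (2.79%), against 2.64%, 1.54% and 1.67% of all regions. Without IκBα-KO replicate 1, 2 or 3 it was 5 (2.33%), 7 (3.26%) and 8 (3.72%), against 1.40%, 1.68% and 1.79%. The 14 were 13 higher and 1 lower, the 7 were 6 higher and 1 lower, and the rest were all higher. DESeq2 called 10 of the 215 (4.65%), 9 higher and 1 lower, against 493 of all 18708 (2.64%). Without the offset, on 2011 regions of near-equal length, 34.7% were called, 350 higher and 348 lower, and 10 of the 31 with an H3K27ac region (32.3%), 8 higher and 2 lower. The fit tests the whole H3K27me3 region, of 22.8 to 207 kb here, of which the H3K27ac region is a small part. The median log2 fold change was 0.017 over the 215 and -0.0025 over all.

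The smallest p belonged to a 207 kb domain on chr7:143298001-143505400 whose H3K27ac region lay in Kcnq1 with Cdkn1c the nearest gene, both imprinted genes for a potassium channel and a cell cycle inhibitor. It held 67.9, 71.1 and 72.5 H3K27me3 reads per kb in IκBα-WT and 109, 114 and 105 in IκBα-KO, without overlap. Its log2 fold change was 0.63 ± 0.060 (SE; edgeR adjusted p = 3.92e-05). The H3K27ac region in this domain was called for H3K27ac in 2 IκBα-WT and 0 IκBα-KO libraries. H3K9me3 was called at it in 0 IκBα-WT and 3 IκBα-KO libraries. The second, chr8:120713801-120822800 near Irf8, an interferon regulatory factor gene, had 40.1, 38.4 and 39.3 against 57.9, 58.1 and 53.9 (log2 fold change 0.52 ± 0.054, edgeR adjusted p = 7.79e-05). The third, chr2:167800801-167872800 near Tmem189 and Ptpn1, held 3 of the H3K27ac regions and had 30.0, 26.7 and 26.7 against 35.6, 38.4 and 34.6 (0.38 ± 0.060, edgeR adjusted p = 0.00261). Input moved with these at 5 of the 9, all on chromosomes 2 and 8, where input reads per kb in IκBα-KO were 1.58 to 1.78 times those in IκBα-WT. At the other 4, on chromosomes 7 and 15, the ratio was 1.09 to 1.15, with a median of 1.13 over all 18708 regions. Without chromosomes 2, 8 and 12, where earlier results of these data showed unequal input, 117 of 15548 regions passed and 3 of 164 with an H3K27ac region, all 3 higher in IκBα-KO.

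H3K9me3 passed at 119 of 27276 regions, 0.436%, with 46 higher (0.169%) and 73 lower (0.268%) in IκBα-KO. Of 916 that overlapped 1044 of the distal H3K27ac regions, 1 passed (0.109%), below the share over all regions, and 92 (10.0%) had an unadjusted p under 0.05, against 2773 (10.2%) of all. DESeq2 called 7 of the 916 (0.764%), 4 higher and 3 lower, against 278 of all regions (1.02%), and edgeR without IκBα-WT replicate 2 or without replicate 3 called 0, with 69 and 71 at an unadjusted p under 0.05. That region, chr8:84050601-84062000, with its H3K27ac region 8137 bp from Gm10643, had 67.7, 63.6 and 65.9 H3K9me3 reads per kb in IκBα-WT and 44.8, 35.4 and 39.3 in IκBα-KO (log2 fold change -0.72 ± 0.11 SE, edgeR adjusted p = 0.0111), while its input was 1.32 times higher in IκBα-KO. The H3K27ac region in it, of 1400 bp, was called in 2 IκBα-WT and all 3 IκBα-KO libraries. Reads per kb were 41.9 and 46.9 over IκBα-WT calls of 2600 and 7000 bp. Over IκBα-KO calls of 13000 to 22600 bp they were 62.3 to 69.96. H3K27ac input over these calls was 29.9 to 34.6 reads per kb in IκBα-WT and 40.6 to 43.5 in IκBα-KO. The mean log2 fold over input was 0.45 in IκBα-WT and 0.64 in IκBα-KO.

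Pluripotency and NF-κB genes were looked up among the nearest genes and the genes that held a region. Of 14 naive pluripotency genes on chromosomes 1 to 19, 8 were the nearest gene of 17 regions (0.53%), against 81 comparison regions (0.364%), and 0 held a region in the body. Tfcp2l1, a transcription factor of naive cells, was nearest to 7 regions, 5 of them within the neighbouring gene Clasp1, and Klf5 to 3. Some of the Clasp1 regions had the same values in IκBα-KO replicate 3, 39.4 ChIP and 29.4 input reads per kb, so they shared a call there. The region nearest to Nanog (chr6:122681201-122681600), 25889 bp from its start, had 80.4 and 101.6 H3K27ac reads per kb in the 2 IκBα-WT libraries that called it and 86.6 and 74.9 in 2 IκBα-KO libraries, with input at 29.2 to 35.9. Each of these values is over the whole call that overlaps this region of 400 bp, and not over the region alone. That nearest to Esrrb (chr12:86335601-86339000) had H3K9me3 in 3 of 3 IκBα-WT libraries, and so did those nearest to Prdm14 and Dppa3. The regions nearest to Klf4, Klf5, Tfcp2l1, Prdm14, Dppa3 and Esrrb were called in at least 1 IκBα-KO library, and the only one nearest to Zfp42 in 0. Of the core pluripotency genes, Sox2, nearest to 5, and Dppa4, nearest to 1, accounted for all 6 regions (0.187%), against 30 comparison regions (0.135%). The Sox2 regions lay 19805 to 425796 bp from its start, and the 3 narrower ones were called in 0 IκBα-KO libraries. These 3 and the Zfp42 region were each called in 2 IκBα-WT lists. Of all regions called in 2 IκBα-WT lists, 39.2% were called in 0 IκBα-KO lists and 20.4% in 1. Over all 3208 regions 30.3% were called in 0. Crebbp, which encodes CBP, held 3 regions in its body, each called in 2 IκBα-WT and at most 1 IκBα-KO library, and Dnmt3a, a DNA methyltransferase gene, held 1. The 3 Crebbp regions had the same values in IκBα-WT replicate 3, 42.2 ChIP and 34.5 input reads per kb. They shared 1 call there and are not separate calls. Of 9 NF-κB genes, 1, Nfkb1, was the nearest to 2 regions (0.0623%), against 9 comparison regions (0.0404%), and Nfkbia to 0.

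Short words of known factors were counted in the middle 300 bases, on either strand, with no test. The octamer word ATGCAAAT was found in 2.43% of the regions and 2.22% of comparison regions, the Esrrb word TCAAGGTCA in 0.69% and 1.10%, and the Klf word GGGTGTGG in 2.03% and 3.28%. The AP-1 word TGACTCA was found in 7.76% and 6.54%, and the κB word GGGANTTCC in 1.34% and 1.11%. The YY1 word AAGATGGCG was found in 0.16% and 0.17%, and the CTCF core AGGGGGCGC in 0.062% and 0.15%. None of the 5 windows printed above holds any of these words. A match is a run of letters and not a binding site.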

How the data were processed

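The ChIP-seq lists of 5 marks from both genotypes were analysed. Per the submitters' processing notes, reads were handled with Trim Galore 0.6.6, Bowtie2 2.4.4 and SAMtools 1.15 on GRCm38. The study's methods state the aligner for H3K4me3, H3K27me3 and H3K4me1; for H3K27ac and H3K9me3 it is not given in the methods, and H3K9me3 is not described there. For the marks described, multimapping and blacklisted reads were removed, which lowers coverage of repeats. For H3K4me3 the authors deposited MACS2 2.2.7.1 peaks per library with a fold, −log10 p-value, −log10 q-value and score. For the other marks the authors deposited epic2 regions per library with a count of ChIP reads, a count of input reads, a p-value, an FDR, a log2 fold over input and a score. No count is given outside calls, so depth is known only within them, and shares cover calls, not reads.

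Consensus sequence was that called in at least 2 of 3 libraries. Regions, gene lists and words were chosen with earlier results of these data known. Regions named were the 6 of highest mean IκBα-WT read density called in all 6 H3K27ac libraries and the 4 of highest density called in 3 IκBα-WT and 0 IκBα-KO libraries (1 per nearest gene in each case; 1 of these 4 is not reported here), the 4 widest, up to 3 per other mark called in all 6 libraries, up to 3 per edgeR fit, and the 6 genes with most regions. Shares were compared with exact permutation tests, two-sided, with Benjamini-Hochberg adjustment over 3 marks. Counts per merged region called in all 6 libraries were fitted with edgeR 4.0.16 (R 4.3.3; TMM, offset of covered length, quasi-likelihood test, adjusted p under 0.05). Library sizes and TMM factors were taken after division by covered length, since the offset otherwise counts length again. On simulated counts with 200 regions changed 2-fold, the fit recovered 198 of 200 for H3K27me3 with 12 false calls, and 180 of 200 for H3K9me3 with 21. False calls were 5.71% and 10.4% of the calls, in that order. The H3K27me3 regions called here that overlapped an H3K27ac region changed 1.21 to 1.54-fold. Recovery of changes under 2-fold was not tested. Alternatives included DESeq2 1.42.0, other consensus and distance rules, a replicate block and leaving out each library. Replicates are clones, per the study. Overlaps were computed in Python 3.11.15, and figures drawn with matplotlib 3.10.9.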

Additional observations from a re-analysis of the deposited data

How the results depend on the processing

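The differences in H3K9me3, H3K27me3 and H3K4me3 from the comparison regions kept their direction under every alternative run. With 1 of the 6 libraries of a mark left out the smallest possible exact p is 0.0625, so the test could no longer pass, at 19.3 to 24.2 points for H3K9me3, -8.11 to -7.23 for H3K27me3 and -0.43 to -0.30 for H3K4me3, ranges that include leaving out an H3K27ac library. The genotype difference in H3K27me3, which is within replicate spread, turned to 0.076 points with H3K4me1 over 5000 bp away, to 0.016 without IκBα-WT replicate 2 and to 0.23 without IκBα-KO replicate 3, and ran from -0.53 to 0.23 over the libraries left out. Leaving out 1 library gave -1.49 to -0.58 points for H3K9me3 and 0.0052 to 0.020 for H3K4me3. The share of regions kept by the IκBα-KO H3K27ac lists was 71.0% with a 3 of 3 consensus of both marks, 47.4% with H3K4me1 over 5000 bp away, 49.5% when at least 50% of the bases had to be covered, and 51.9% to 62.3% without 1 library. The share with an IκBα-KO H3K4me1 call was 29.3%, 14.8%, 13.8% and 17.0% to 24.6% under the same settings. In the edgeR fits, leaving out 1 library gave 262 to 493 H3K27me3 regions and 37 to 109 H3K9me3 regions. Each library moved its count by over 1.5 times except IκBα-WT replicate 1 for H3K27me3 (493) and IκBα-KO replicate 2 for H3K9me3 (109). Without chromosomes 2, 8 and 12, an alternative chosen after seeing the data, they gave 117 and 76. DESeq2 called 278 H3K9me3 regions and a fit without offset, on regions of near-equal length, 450. That fit split H3K27me3 evenly, 350 higher and 348 lower, where the offset fit had 316 and 191. The 1 H3K9me3 region that overlaps an H3K27ac region was lost without IκBα-WT replicate 2 or 3. The causes were not tested. The labels do not say that a replicate number is shared between genotypes, and deviations of same-numbered libraries correlated at -0.12 to 0.32. With a replicate block the H3K27me3 and H3K9me3 fits called 467 and 90 regions, and the exact block test over 3 pairs, which cannot go below 0.25, changed no direction of the genotype differences. Comparison regions weighted to the same widths, and regions with over 3 times the median input left out, an alternative added after seeing the data, changed no call. Depth outside calls is unknown, so a lost call is not shown to be an absent mark.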
